A study of Caenorhabditis elegans with 4 samples.

Results

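The *abu* and *pqn* genes of *C. elegans* were followed through the larval stages of the *prg-1* mutant. Members were taken by name, as every listed gene called *abu* or *pqn* with a number, which gave 80 genes (15 *abu* and 65 *pqn*) of 46096 listed genes and of 19496 protein-coding ones. The mRNA came from whole worms of the strain labelled wm161, kept at 20°C on the bacterium OP50, with 1 library for each larval stage, L1 to L4. All 4 groups carry the same *prg-1* mutation, so every value below belongs to mutant worms, and wild-type worms were not analysed here. *prg-1* encodes the Piwi protein that holds 21U-RNAs in the worm germline. Each level is given in FPKM, the fragments mapped to a gene per kilobase of its transcript, relative to all mapped fragments, and a range in parentheses is the 95% interval that the deposited tables give with it. The interval covers error within a library only, since no stage was sampled again, and no test between stages was possible.

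*abu* stands for activated in blocked unfolded protein response, after worms in which the first genes of this name were found, and *pqn* for prion-like, glutamine- and asparagine-rich. Many *abu* and *pqn* proteins are secreted by cells of the pharynx and build the pharyngeal cuticle, the chitin-containing lining of the feeding organ. This lining, with the grinder that crushes bacteria, is shed and remade at each molt, and the genes for it are known to be active in pulses before the molt. Other *pqn* genes share only the amino acid bias and encode proteins of the nucleus, the cytoskeleton or protein breakdown. The name therefore joins genes with different roles, and the levels of both kinds are given below. The genes were chosen by name, but the name was selected on FPKM levels already known from these same 4 libraries, so stage differences are given as a description.

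The libraries were of like depth, at 1.01 to 1.05 times that of L1 for the later stages as recovered from the lowest values. All 320 estimates of the 80 genes had the status OK. *prg-1* itself was listed at 11.02, 11.7, 13.0 and 23.6 FPKM from L1 to L4. The part of the gene that the allele removes is not stated in the sources used, so these levels do not check the labels. Levels of 1 FPKM or more in any library were reached by 69 members, 10 FPKM by 59 and 100 FPKM by 15. The age within each larval stage at which worms were taken is not stated in the sources used, so the stage and the position in the molting cycle cannot be told apart.

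A large share of these genes was higher at L2 than at L1. A gene was counted as higher or lower where the log2 difference of FPKM + 1 was at least 1 in size, 1 stage reached 1 FPKM, and the 95% intervals did not overlap. By this rule of size 28 of the 80 members (35%) were higher at L2 than at L1, against 4.72% of all protein-coding genes, or 7% of those with a mean of at least 1 FPKM. The 28 comprised 11 of the 15 *abu* genes (73.3%) and 17 of the 65 *pqn* genes (26.2%). Only 1 member, *pqn-75*, was lower, against 1.74% of protein-coding genes. The median log2 difference was 4.06 over the *abu* genes and 0 over the *pqn* genes, beside −0.03 over all protein-coding genes. Summed over all 80 members, the level was 5177 FPKM at L2, against 2604 FPKM at L1. Summed over the 28 genes, the level was 2840.2 FPKM at L2, against 159 FPKM at L1. The sum over the 41 other members that reached 1 FPKM was 2335 FPKM at L2, against 2445 FPKM at L1. The split of the members by this same difference fixes the contrast between the last 2 sums. In whole worms, fewer cells of a type and less RNA per cell cannot be told apart. The FPKM lay outside its own interval at L1 or L2 in 12 of the 28, so their levels are uncertain, and 16 members were higher at L2 when such values were left out.

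**Figure D1:**
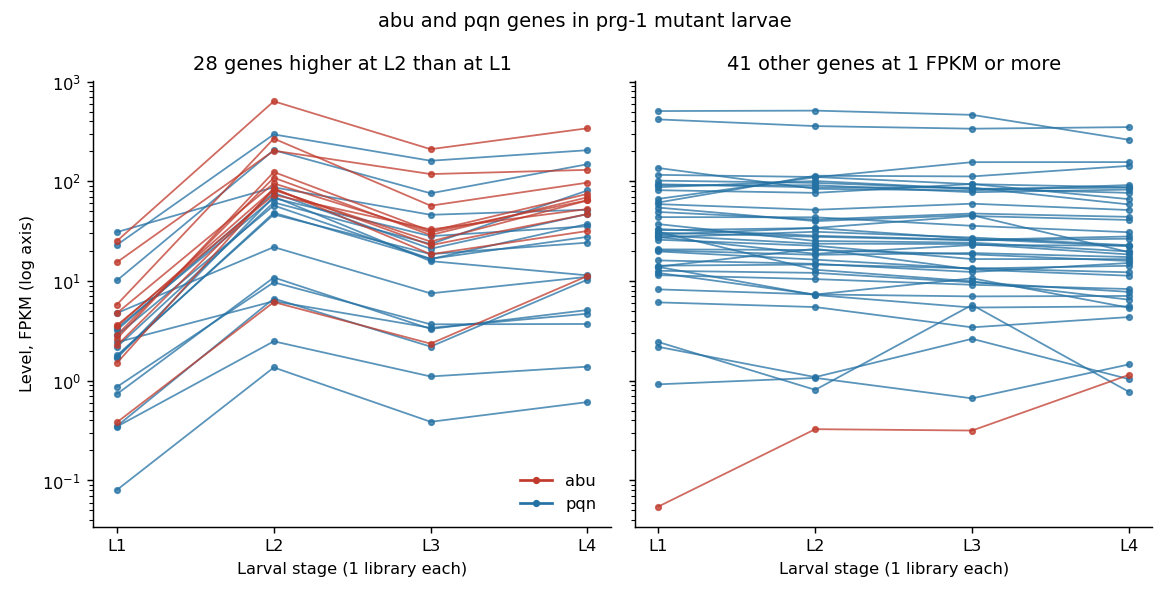
Level of each gene in FPKM (log axis) at L1, L2, L3 and L4, with 1 point per library, *abu* genes in red and *pqn* genes in blue. The left panel holds the 28 genes chosen for being higher at L2 than at L1, in which 24 lines run in the order L2, L4, L3, L1, and the right panel holds the 41 other genes at 1 FPKM or more, of which 33 stayed within a 2-fold range.

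Among the *abu* genes, the most abundant was *abu-14*, which is known to be needed for the grinder. Its level was 25.2 (22.4 to 28.1) FPKM in L1 worms, 635 (619 to 659) in L2, 210.05 (202 to 221) in L3 and 340.4 (329.9 to 355) in L4 worms, with intervals apart at all stages. *abu-8* had levels of 5.81, 268, 57.0 and 97.0 FPKM over the 4 stages in order, and its log2 difference of 5.31 between L2 and L1 was the largest of the family. The L2 and L4 estimates of *abu-8* lie above their intervals, 227 to 246 and 80.5 to 92.2 FPKM, so its peak is less certain than that of *abu-14*. *abu-13* differed less, with 15.4, 203, 118 and 130.3 FPKM over these stages, and its L2, L3 and L4 estimates lie above their intervals.

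The neighbours *abu-15*, *abu-7* and *abu-6* behaved much alike. *abu-15* was at 2.65, 124, 31.6 and 74.8 FPKM from L1 to L4. *abu-7* was at 2.88, 109, 29.0 and 69.1 FPKM over the same stages. *abu-6* was at 2.26 (1.29 to 3.13), 81.9 (76.0 to 88.2), 24.9 and 64.3 FPKM. All 3 were lowest at L1 and highest at L2. The L2, L3 and L4 estimates of *abu-15* and *abu-7* lie above their own intervals. *abu-15* and *abu-6* have the same coding length, 1164 bases. Shared reads may link the levels of these neighbours, and that was not tested. *abu-10* had the largest ratio of unadjusted levels, 56.6-fold, from 85.3 FPKM at L2 against 1.51 FPKM at L1. It had 18.6 FPKM at L3 and 31.8 at L4. The L2 and L4 estimates of *abu-10* lie above their intervals, 68.0 to 80.4 and 24.5 to 31.1 FPKM. *abu-11* (95.3 FPKM at L2 and 4.77 at L1), *abu-1* (83.8 and 3.51) and *abu-12* (73.2 and 3.598) took the same course, with higher levels at L4 than at L3. The L2 estimates of *abu-11* and *abu-1* lie above their intervals. *abu-9* was the weakest of the 11 by level, at 0.383, 6.15, 2.36 and 11.2 FPKM, and the only one of them with its highest level at L4.

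The 4 *abu* genes that were not higher at L2 were all low. *abu-4* was the highest of them, at 0.0548, 0.327, 0.317 and 1.14 FPKM from L1 to L4. *abu-5* did not pass 0.320 FPKM, *abu-2* was above 0 at L4 alone (0.224 FPKM), and *abu-3*, a pseudogene in the reference annotation, was listed at 0 at all stages. Every *abu* gene that reached 10 FPKM in a library was therefore among the 28. Of these, only *abu-13* and *abu-14* were above 10 FPKM at L1. The threshold thus picks most of them by their later levels, so the overlap is largely fixed by the choice.

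**Figure D2:**
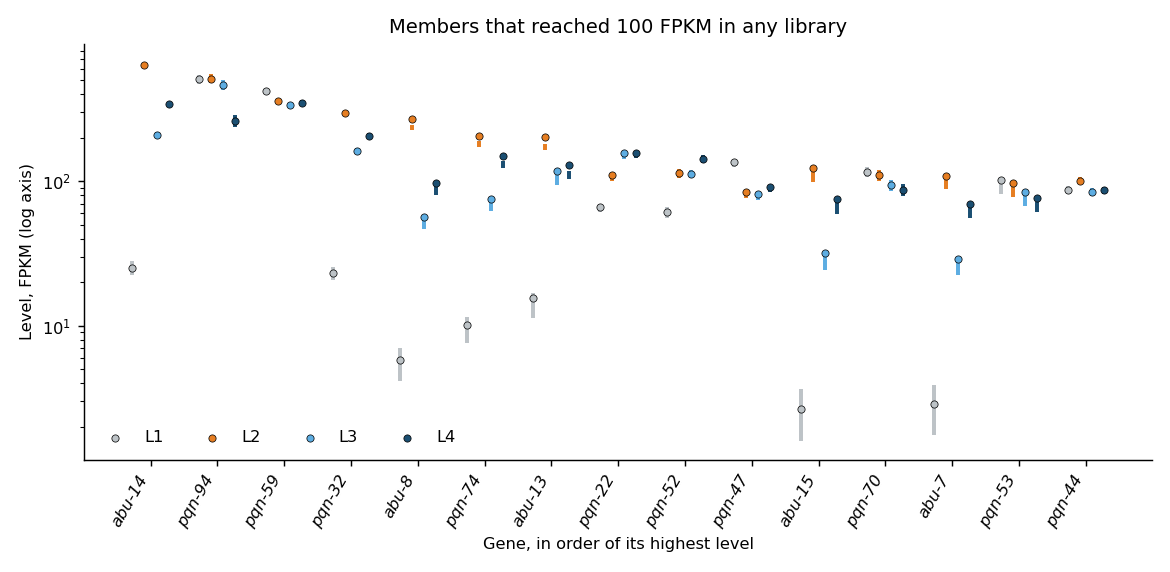
Levels in FPKM (log axis) of the 15 members that reached 100 FPKM in any library, with 1 point per larval stage and bars for the 95% interval given in the deposited tables. In *abu-14*, *pqn-32*, *abu-8*, *pqn-74*, *abu-13*, *abu-15* and *abu-7* the L1 point lies far below the other 3, while *pqn-94*, *pqn-59*, *pqn-47*, *pqn-70*, *pqn-53* and *pqn-44* have no such gap, and several points lie above their own bar.

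Among the *pqn* genes higher at L2, *pqn-32* (named *dbd-8* in the reference) was the most abundant, at 23.1 (20.7 to 25.4), 295.5 (289 to 308), 161 and 205 FPKM from L1 to L4. *pqn-74* was at 10.1, 206, 75.9 and 148 FPKM, and its L2, L3 and L4 estimates lie above their intervals. Both had L1 as their lowest stage and L2 as their highest, as *abu-14* did. *pqn-71* reached 70.2 FPKM at L2, against 1.69 at L1, and had 15.8 FPKM at L3 and 11.4 FPKM at L4, with no return of the level at L4. *pqn-54* ran otherwise, at 2.19, 61.4, 23.5 and 80.9 FPKM, with its highest level at L4. The L2 estimates of *pqn-71* and *pqn-54* and the L4 estimate of *pqn-54* lie above their intervals. *pqn-13*, *pqn-2*, *pqn-72*, *pqn-63* and *pqn-26* stood between 46.5 and 76.6 FPKM at L2 and between 1.74 and 3.36 FPKM at L1. Of these, *pqn-2* and *pqn-63* had L2 estimates above their intervals. *pqn-35* started from the highest L1 level of the 28 (31.0 FPKM) and reached 87.1 FPKM at L2, a ratio of 2.81. At the low end, *pqn-10* was at 1.36 FPKM at L2, against 0.0804 FPKM at L1. The genes nearest the threshold inside were *pqn-42* (log2 difference 1.09) and *pqn-10* (1.13), and those nearest it outside were *pqn-52* (0.88) and *pqn-22* (0.71).

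**Figure D3:**
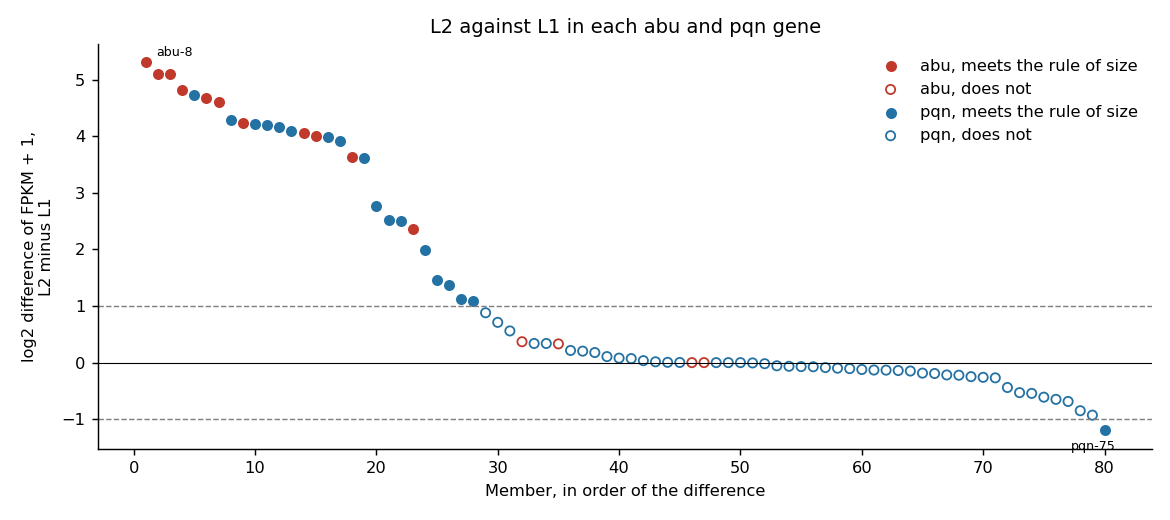
The log2 difference of FPKM + 1, L2 minus L1, for all 80 members in order of size, with *abu* genes in red, *pqn* genes in blue and filled points for genes that meet the rule of size (dashed lines at 1 and −1). The points run from *abu-8* at 5.31 to *pqn-75* at −1.20, and 19 of them lie above 3.6 while most of the others lie close to 0.

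Some of the differences between L2 and L1 were among the largest of all protein-coding genes. Members made up 28 of the 918 protein-coding genes that were higher at L2 (3.05%) and 23 of the 458 that were at least 4-fold higher (5.02%). They made up 15 of the 78 that were at least 16-fold higher (19.2%). In all there were 80 members and 19496 protein-coding genes. By log2 difference *abu-8* was the gene at place 2 of 918, *abu-10* at place 4 and *abu-15* at place 5. Others of the 28 stood far lower, down to *pqn-42* at place 866. The L2 estimates of *abu-8*, *abu-10* and *abu-15* lie above their own intervals, so their places are uncertain. So do those of *abu-7*, *pqn-71*, *pqn-54*, *abu-1*, *pqn-74*, *pqn-2*, *pqn-63* and *abu-11*, so that most of the 15 rest on uncertain levels. The median log2 difference was 4.26 in the 12 of the 28 with an FPKM outside its interval. It was 2.65 in the 16 with every FPKM within its interval. The median ratio of L2 to L1 over the 28 was 20.2, with 2.58 for *pqn-42* and 56.6 for *abu-10* at the ends. Rescaling each library to a common median ratio moved all genes by 0.11 on the log2 scale between L2 and L1, which is small beside these differences.

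At L3 most of the same genes were lower again. 22 of the 80 members were lower at L3 than at L2, against 2.17% of protein-coding genes and 3.17% of those with a mean of at least 1 FPKM, and all 22 were among the 28. They were 10 *abu* and 12 *pqn* genes. The L2 library that set the 28 apart also enters this comparison, so a part of the fall is fixed by the choice of genes. The log2 difference was −2.22 for *abu-8*, −2.14 for *abu-10*, −2.08 for *pqn-71*, −1.94 for *abu-15* and −1.87 for *abu-7*. Summed over the 28, the level was 1023 FPKM at L3, against 2840.2 FPKM at L2. The L3 level still exceeded the L1 level in each of the 28. The 6 that did not meet the rule were *pqn-32*, *abu-13*, *pqn-35*, *pqn-42*, *pqn-73* and *pqn-10*, and all of them had a lower FPKM at L3 than at L2. When values outside their interval were left out, 11 members were lower. The only member higher at L3 was *pqn-98* (named *srlf-37* in the reference), against 1.14% of protein-coding genes. It stood at 2.45 (0.671 to 3.86), 0.811 (0.167 to 1.33), 5.76 (2.43 to 6.47) and 0.774 (0.159 to 1.27) FPKM from L1 to L4, so that L3 stood above L2 and L4 but not clear of L1.

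The step to L4 uses neither of the libraries that set the 28 apart. The levels of all 4 libraries were known when the name was selected, so this step too is given as a description. 10 of the 80 members were higher at L4 than at L3, against 2.56% of protein-coding genes and 3.22% of those with a mean of at least 1 FPKM. All 10 were among the 28, of which they made 35.7%. They were *abu-9*, *pqn-57*, *pqn-54*, *abu-6*, *abu-7*, *abu-15*, *pqn-63*, *pqn-2*, *abu-11* and *abu-1*, with log2 differences between 1.00 and 1.87. The level was higher at L4 than at L3 in 27 of the 28, *pqn-71* being the exception. It was also higher in 15 of the 41 other members at 1 FPKM or more. Of the 918 protein-coding genes chosen alike, as higher at L2 than at L1, at least 543 (59.2%) were higher at L4 than at L3. These had the order L2, L4, L3, L1, and the full share was not counted. The sum over the 28 was 1689.7 FPKM at L4, against 1023 FPKM at L3. *pqn-57* had the largest increase at this step among *pqn* genes, at 0.351, 6.68, 2.199 and 10.3 FPKM from L1 to L4. Both members that were lower at L4, *pqn-98* and *pqn-60*, are named *srlf* genes in the reference, and 0.355% of protein-coding genes were lower. Only 4 members were higher, and 1 was lower, when values outside their interval were left out.

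Over the whole course the order of levels was L2, L4, L3, L1 in 27 of all 80 members (33.8%), against 831 of 12612 protein-coding genes with a mean of at least 1 FPKM (6.59%). Among genes chosen alike, as higher at L2 than at L1, it was found in 24 of the 28 members (85.7%), against 543 of all 918 protein-coding genes (59.2%). In 3 (*abu-9*, *pqn-57* and *pqn-54*) it was L4, L2, L3, L1. The choice of the 28 fixes the place of L1 below L2. It does not fix the places of L3 and L4, but it favours L2 as the highest stage and L1 as the lowest. The 95% interval at L2 stood above those of the other 3 stages in 25 of all 80 members and in 5.11% of the same protein-coding genes. At L4, 5 members were lower than at L2 (*pqn-71*, *abu-8*, *abu-10*, *pqn-67* and *pqn-72*), against 1.72% of protein-coding genes, and none was higher, against 3.68%. Of the 5, only *pqn-67* and *pqn-72* remained when values outside their interval were left out, which makes 2 members. Against L1, 27 members were higher at L4 (7.11% of protein-coding genes) and 3 were lower (3.2%). The 27 comprised 24 of the 28 and, beside them, *abu-4*, *pqn-22* and *pqn-52*. Their largest log2 differences between L4 and L1 were 4.68 for *pqn-54*, 4.38 for *abu-15*, 4.32 for *abu-6*, 4.18 for *abu-7* and 3.85 for *abu-8*. 16 members were higher at L4 than at L1 when values outside their interval were left out.

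**Figure D4:**
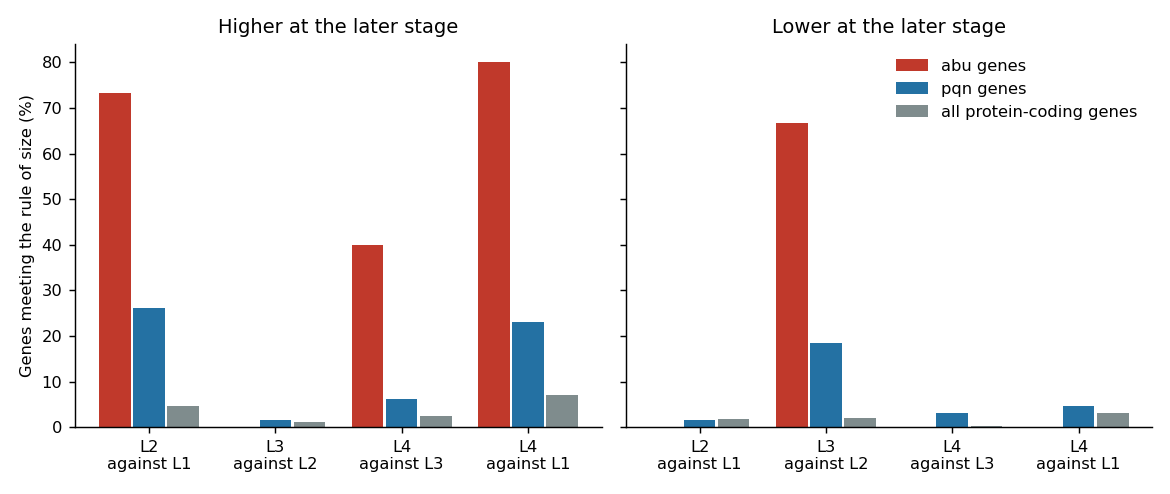
Share of genes (%) that met the rule of size as higher (left) or lower (right) at the later stage, for *abu* genes, *pqn* genes and all protein-coding genes in 4 comparisons of larval stages. The *abu* bars are the tallest wherever members were higher at L2 or L4 (73.3% at L2 against L1) and where they were lower at L3 (66.7%), and the comparisons share libraries.

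The 41 other members at 1 FPKM or more are those left once every gene higher at L2 than at L1 was taken out, so the lack of a tall L2 peak among them follows from the split. Their highest level fell at L1 in 25, at L2 in 7, at L3 in 5 and at L4 in 4, and 33 of them stayed within a 2-fold range over all stages. *pqn-59*, the worm relative of the human RNA-binding protein UBAP2L, was at 418 (413 to 434), 358 (347 to 372), 337 (331 to 350.3) and 349.8 (343 to 363) FPKM. *pqn-94* held 507, 512 and 464 FPKM at L1 to L3 and 261 (237 to 286) at L4. *pqn-70* was at 116, 110.5, 93.7 and 87.3 FPKM, and *pqn-53* at 102, 96.5, 84.5 and 76.6 FPKM with each value above its own interval. None of these 4 abundant genes met the rule at any step.

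Most members studied for other roles were of this even kind, while *pqn-32*, *pqn-60* and *pqn-98*, which also have other names in the reference, were not. *pqn-85* is *scc-2*, the loader of cohesin onto chromosomes, and was at 16.1, 14.9, 12.3 and 15.2 FPKM. *pqn-34* is *ptrn-1*, the worm Patronin at microtubule minus ends, with 14.3, 14.6, 13.4 and 12.2 FPKM. *pqn-55* is *ebax-1*, a substrate receptor for protein breakdown, with 19.8, 16.4, 13.3 and 14.2 FPKM. *pqn-44* is *tent-5*, a cytoplasmic poly(A) polymerase, with 87.4, 101, 84.2 and 86.4 FPKM. *pqn-41*, known from the death of the male linker cell, was at 20.8, 20.5, 18.5 and 15.9 FPKM. *pqn-47* is *myrf-1*, a membrane-bound transcription factor of larval development. It was highest at L1 with 136 FPKM, a value above its interval, and at 84.1, 81.0 and 91.7 FPKM afterwards. Its log2 difference of −0.69 between L2 and L1 missed the rule. None of the last 6 met the rule at any step.

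A few members moved the other way or upward without a peak. *pqn-75*, known from pharyngeal gland cells, had a lower level at each later stage, at 31.1 (28.0 to 34.2), 13.0 (11.1 to 14.9), 9.93 (8.27 to 11.6) and 6.51 (5.17 to 7.84) FPKM, and both L2 and L4 were lower than L1 by the rule, with a log2 difference of −2.10 between L4 and L1. *pqn-25* stood at 13.9, 7.24, 5.42 and 5.57 FPKM and *pqn-60* (named *srlf-35* in the reference) at 54.5, 39.9, 45.8 and 19.5 FPKM, and both were lower at L4 than at L1. All 4 values of *pqn-60* lie above their intervals. *pqn-97* (*srlf-36*) had 2.19, 1.09, 2.63 and 1.04 FPKM. *pqn-22* stood at 66.7, 109.8, 156 and 156 FPKM and *pqn-52* at 61.3, 114, 112 and 143 FPKM. Both were higher at L4 than at L1, with log2 differences of 1.21 each. The L3 and L4 estimates of *pqn-22* lie above their intervals.

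Members below 1 FPKM at every stage numbered 11, and 3 of them, *pqn-84*, *pqn-16* and *abu-3*, were listed at 0 throughout. *pqn-76*, *abu-5*, *pqn-78* and *pqn-79* follow each other on chromosome IV, each with a listed span of 1076 bases and a coding length of 1005 bases. *pqn-76*, *abu-5* and *pqn-79* have the same L2 level, 0.320 FPKM, and the same L4 level, 0.138 FPKM. Genes this alike can share reads, and how such reads were assigned is not stated, so the levels of single copies are uncertain.

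Part of the L2 group lies close together in the genome. Positions are those of the deposited tables, counted from 1. The submitters' notes name build ce10, but the listed spans of all 15351 21U-RNA loci equal those of the WBcel235 reference. So do the spans of 14 of the 80 members. The build of the positions was not checked further. The 22 members on chromosome V included 11 of the 28, and the 11 on chromosome II included 6. Of the members on X, 5 of 15 were among the 28, on III 3 of 12, on I 2 of 9 and on IV 1 of 11. Of all protein-coding genes, 4899 lie on V, 3358 on II, 2661 on X, 2585 on III, 2815 on I and 3178 on IV. On chromosome V *abu-15* (5158623 to 5159897, plus strand), *abu-6* (5160671 to 5161892, minus), *abu-7* (5163396 to 5164759, minus) and *abu-8* (5192993 to 5194608, minus) follow each other, and all 4 were higher at L2. *abu-1* (10380339 to 10381823, minus) and *pqn-2* (10382442 to 10383976, plus) form a pair on the same chromosome that points apart. Both have a coding length of 1275 bases, and their levels were near each other at every stage, with 76.6 FPKM for *pqn-2* and 83.8 FPKM for *abu-1* at L2. *pqn-57* (8319668 to 8320986, minus) and *abu-9* (8322111 to 8323343, plus) form another such pair on chromosome X, each with 1134 coding bases, and both had their highest level at L4. Shared reads may link the levels within these pairs, and that was not tested. Neighbouring members did not always share the pattern. *abu-11* (192531 to 194558) lies near *pqn-85* (240717 to 255182) on chromosome II, and *pqn-67* (12924441 to 12928173) near *pqn-68* (12952638 to 12953206) on chromosome V, with 1 gene of each pair higher at L2. In all, 22 members fell into 9 runs with neighbouring starts within 50 kb. No like count was made for other sets of genes.

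In gene structure, the 28 had a median coding length of 1324.5 bases with 5 coding exons in the WBcel235 annotation, against 1515 bases and 8 exons for the 41 other members and 996 bases and 5 exons for all protein-coding genes. The 11 *abu* genes of the group were shorter, with a median of 1185 bases and 3 coding exons, than its 17 *pqn* genes, with 1608 bases and 6. The listed span of 4 of the 28 overlaps another protein-coding gene, as does that of 13 of all 80 members. *abu-14* and *pqn-32* are among the 4, each overlapping a gene on the other strand, and any use of strand in the counting is not stated.

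The genes of other pharyngeal cuticle proteins moved with the 28. All 18 of the measured genes on this list were higher at L2 than at L1, against 4.72% of protein-coding genes. They are the chitin synthase *chs-2* and the *idp* genes for intrinsically disordered pharyngeal cuticle proteins. At the next steps 14 of them were lower at L3, against 2.17% of protein-coding genes, and 7 higher at L4, against 2.56%. The summed level of the 18 was 54.1, 887, 266 and 543 FPKM from L1 to L4. *idpc-1* was at 7.93, 237, 56.4 and 122 FPKM and *idpc-4* at 5.38, 182, 36.3 and 86.9 FPKM. The L2, L3 and L4 estimates of both lie above their own intervals, so their levels are uncertain. So do the L2 estimates of *idpc-2*, *idpc-5*, *idpc-6*, *idpa-3* and *idpb-1*. *idpc-3* stood at 2.56, 71.4, 25.3 and 75.0 FPKM, and *idpp-1* differed, with 20.6, 46.3, 53.4 and 52.3 FPKM. *chs-2* was at 1.41, 18.7, 6.92 and 9.33 FPKM. On the wider list of 33 *idp* and *appg* genes of the reference, drawn up after the data were seen and including the same *idp* genes, 29 were higher at L2 and 1 lower, 23 were lower at L3 and 8 higher at L4.

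Other tissues of the pharynx gave values of different kinds. None of 5 pharyngeal muscle genes met the rule at any step, and their sum was 434, 397, 364 and 299 FPKM. *myo-2*, the pharyngeal myosin, was at 95.9, 109, 81.3 and 74.1 FPKM and *myo-1* at 106, 99.9, 99.7 and 83.2 FPKM. *tni-4* was at 155, 128, 120.2 and 96.2 FPKM, with each value above its own interval. None of 6 pharynx transcription factors met it either, among them *pha-4*, the organ's selector gene, at 28.1, 26.5, 14.9 and 17.2 FPKM. The 7 pharyngeal gland genes included 4 that were higher and 1 that was lower at L2, against L1. At L3, 4 were lower than at L2, and at L4 1 was lower and none higher than at L3. Their sum was 276, 766, 338 and 389 FPKM. *phat-1*, *phat-2* and *phat-4* ran in the order L2, L4, L3, L1, as most of the 28 did, and the rest of the list did not. *phat-4* was at 57.3, 495, 171 and 256 FPKM, and *phat-3* at 183, 90.6, 104 and 74.1 FPKM. The values of *phat-4* at every stage lie above their intervals, as do the L2 values of *phat-1*, *phat-2* and *phat-5*.

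Beyond the pharynx, 5 of 12 genes for molting and body cuticle were higher at L2 than at L1 and 1 was lower. *mlt-10*, a molting gene, was at 13.5, 138, 90.2 and 144 FPKM, the metalloprotease gene *nas-36* at 0.912, 11.3, 5.58 and 11.6 FPKM and *lin-42*, the worm relative of *period*, at 106, 402, 261 and 308 FPKM. All 3 were lowest at L1, as the 28 were, and *mlt-10* and *nas-36* reached at L4 at least their L2 level. These 3 are among the 5 higher genes. *noah-1* (log2 difference 0.08 between L2 and L1), *noah-2* (0.35), *mlt-11* (0.37), *dpy-7* (0.51), *nhr-25* (0.13) and *blmp-1* (−0.13) did not meet the rule. The gene that was lower at L2 was *nhr-23* (−1.10). The part of the molting cycle in the result was not tested. Of the genes of the unfolded protein response, from which *abu* has its name, none of 14 met the rule at any step, and the median log2 difference was −0.35 between L2 and L1. *hsp-4*, the BiP gene induced by that response, was at 91.0, 97.8, 82.0 and 119.9 FPKM, and *hsp-3* at 1040.45, 777, 798 and 816 FPKM. None of 10 germline genes was higher at L2 than at L1, and 5 were higher at L4 than at L3, with a sum of 46.4, 57.3, 82.8 and 182 FPKM. None of 3 body wall muscle genes and none of 3 intestine genes met the rule at any step.

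**Figure D5:**
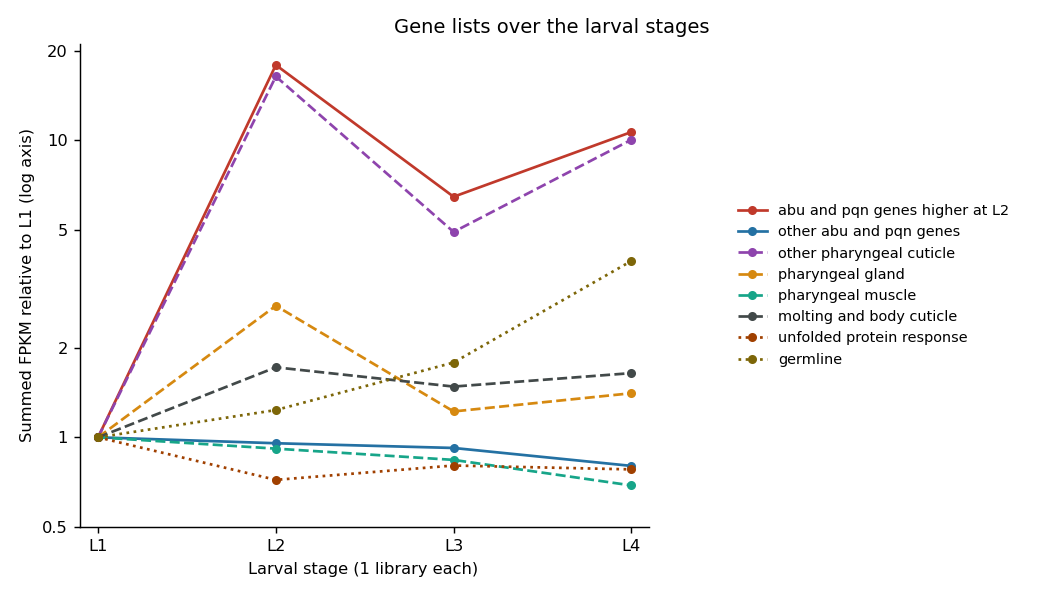
Summed FPKM of 8 groups of genes relative to their sum at L1 (log axis), with 1 point per larval stage. The 28 *abu* and *pqn* genes, chosen for being higher at L2, and the other pharyngeal cuticle genes peak at L2. Both lie lower at L3 than at L4. The sums of the pharyngeal gland and of molting and body cuticle also peak at L2 and lie lower at L3 than at L4, with smaller changes. The other *abu* and *pqn* genes, pharyngeal muscle and the unfolded protein response stay near or below 1, and the germline sum is highest at L4.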

How the data were processed

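Poly(A) RNA of whole *prg-1* mutant (wm161) worms was sequenced, with 1 library for each larval stage, L1 to L4. The submitters' processing notes name TopHat2 (2.0.8), Cufflinks (2.1.1) and genome build ce10. The deposited values are FPKM per gene with a 95% interval and a status. The annotation and the handling of reads with several matches are not stated in the sources used.

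With Python (3.11.15), numpy (2.4.6), pandas (2.3.3) and matplotlib (3.10.9), stages were compared by a log2 difference of FPKM + 1 of at least 1, an FPKM of at least 1 in a stage and intervals that did not overlap. No p-value was computed. Biotypes and names came from RefSeq, in which all 80 members were found, and coding lengths from the WBcel235 annotation (Ensembl 115). The members and 9 gene lists were chosen with earlier results of these data known. Named members are those at 100 FPKM or more, the 5 largest differences in each direction at each step and those studied under another name. Up to 4 genes with the highest mean FPKM were to be named from each other list. Further genes were named after their values were seen. Planned descriptions of protein composition and promoters were not run, as no sequences were used here. Alternatives changed the pseudocount, filter, scaling, intervals, fold, failed estimates and values outside their interval. The rule was tested on simulated data, made from genes with an L1 FPKM within its interval and with error within a library only. That run therefore covers neither values outside their interval nor the spread between cultures.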

Additional observations from a re-analysis of the deposited data

How the results depend on the processing

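No paired analysis was possible because every larval stage is represented by a single sample. Without values outside their own interval, 16 members were higher at L2 than at L1, 11 lower at L3 than at L2, 4 higher and 1 lower at L4 than at L3, and 16 higher at L4 than at L1. With a 4-fold threshold, 0 were lower at L2 than at L1, 0 higher and 3 lower at L3 than at L2, 0 higher and 0 lower at L4 than at L3, and 1 lower at L4 than at L1. The comparison of L4 with L2, in which 5 members were lower, was added to the alternatives after seeing the data. It gave 2 lower members without values outside their interval and 1 with the 4-fold threshold. All other counts over the 80 members in these 5 comparisons stayed within 1.5 times under these settings, a pseudocount of 0.1 FPKM, no filter, both rescalings, size alone and kept failed estimates. Counts of *abu* genes, *pqn* genes and other lists were not recomputed. With 1 library per stage, the spread between cultures is unknown, and levels of near-identical genes depend on how shared reads were assigned.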
